A study of Mus musculus with 60 samples.

Results

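The repressive histone mark H3K27me3 was compared in the dorsal root ganglia of mice after a spinal injury, dorsal column axotomy (DCA), and after its control surgery, laminectomy (Lam), which opens the vertebra and leaves the axons uncut. These were 4 ChIP samples, 2 per surgery, of 60 samples in all. The ganglia were those at lumbar levels L4 to L6 of C57BL/6 mice aged 6 to 8 weeks, frozen 24 hours after surgery, and each sample pooled 10 mice. The labels give no genotype beyond the strain. H3K27me3 lists from sham sciatic surgery (Sham) and sciatic nerve axotomy (SNA), also from 2 samples of 10 mice each, were used for scaling, for a filter on low values and as background. The authors deposited 1 peak list per surgery, made from the pooled replicates, so no value below has a replicate error and no difference could be tested. Whole ganglia hold neurons, glia, immune and vessel cells, and fewer cells of a type cannot be told apart from less mark per cell.

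H3K27me3 is placed by Polycomb repressive complex 2, whose catalytic subunit is EZH2 or EZH1, and is read by CBX proteins of Polycomb repressive complex 1. It is known for broad domains over silent developmental genes, above all the Hox clusters and genes of homeodomain, T-box, Pax and Sox factors. In mammals these domains typically form around gene starts rich in CG dinucleotides. Sensory neurons after axotomy are a system in which changes of such marks have been studied, because cutting the peripheral branch starts a growth programme and cutting the central branch in the spinal cord does not.

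The DCA list was much the smaller, with 90011 peaks over 91.4 Mb against 154055 peaks over 194.2 Mb in Lam, which is 47.0% of the covered length. The Sham list covered 178.0 Mb and the SNA list 172.7 Mb. Peaks in DCA were also narrower, with a median width of 762 bp and a widest peak of 27.8 kb, against 853 bp and 58.7 kb in Lam. The lists shared 31.7 Mb, which was 34.7% of DCA and 16.3% of Lam. Most peaks were weak by the authors' own caller: their median fold enrichment was 1.18 in DCA and 1.19 in Lam. At a q of at most 0.05 there were 43 peaks in DCA, 916 in Lam, 1613 in Sham and 218 in SNA. The number of reads behind each list is unknown. Chromosome X held 0.133% of the bases covered in DCA and 0.118% in Lam, so almost all of the text concerns chromosomes 1 to 19. Peaks of open chromatin (ATAC) and of the active mark H3K27ac within 1 kb of a gene end did not identify the tissue. ATAC peaks lay at 10 of 10 sensory neuron markers in both Lam and DCA, and also at 7 of 8 markers of other tissues in Lam and 5 of 8 in DCA. H3K27ac lay at 1 of 10 neuronal markers in Lam and 2 of 10 in DCA, and at 7 of 8 and 4 of 8 glial markers.

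Covered bases were counted in each protein-coding gene with 10 kb on either side and in consecutive windows of 100 kb, and were scaled so that every list had the mean total of the 4, 159.1 Mb. The scale factor was 1.74 for DCA and 0.819 for Lam. A value in scaled kb is therefore a share of its list and not an amount of mark, and a region under as many bases in both lists has a log2 ratio near 1, since the log2 ratio of the totals was −1.09. A gene or window was called gained or lost past 2-fold of (scaled kb + 1). Of 21883 genes, 8826 had a mean of at least 2 scaled kb over the 4 lists and entered the comparison.

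Relative to the whole list, DCA had lost coverage at far more genes than it had gained. Of the 8826 genes, 3088 were lost (35.0%) and 1083 were gained (12.3%). Between the control surgeries, Lam against Sham, 794 genes were lost (8.996%) and 1147 gained (13.0%). The 2 comparisons share the Lam list. The log2 ratios had an SD across genes of 1.52 for DCA against Lam and 0.875 for Lam against Sham, with medians of −0.30 and −0.01. The lost genes with their flanks formed 2001 separate loci, and 1516 of them had no base covered in DCA. The gained genes formed 936 loci, and 48 had no base covered in Lam. Centring the ratios on their median gave 2669 lost and 1758 gained genes. Without scaling, where the median of all genes was −1.24, 5178 were lost and 172 gained. Before scaling, each of the 3088 lost genes had fewer covered bases in DCA than in Lam, with medians of 0.16 and 8.93 kb. Of the gained genes, 1059 of 1083 had more, with medians of 4.67 and 2.80 kb. With stronger peaks only, each list was scaled anew to the mean total. At a −log10 p of at least 1, with 8480 peaks in DCA and 31954 in Lam, 714 genes were lost and 572 gained. At a value of at least 3, with 106 and 1322 peaks, 14 were lost and 14 gained. These are too few to show whether the excess of losses holds there. DCA differed in the same direction from both Lam and Sham, comparisons that share the DCA list, at 2579 lost genes (29.2% of those compared) and 387 gained genes (4.38%). The 100 genes just past the threshold had an absolute log2 ratio of 1.00 to 1.03 and a median of 5.98 scaled kb in DCA and 6.14 in Lam. For the 100 just short of it these values were 0.97 to 1.00, 5.52 and 5.30.

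**Figure D1:**
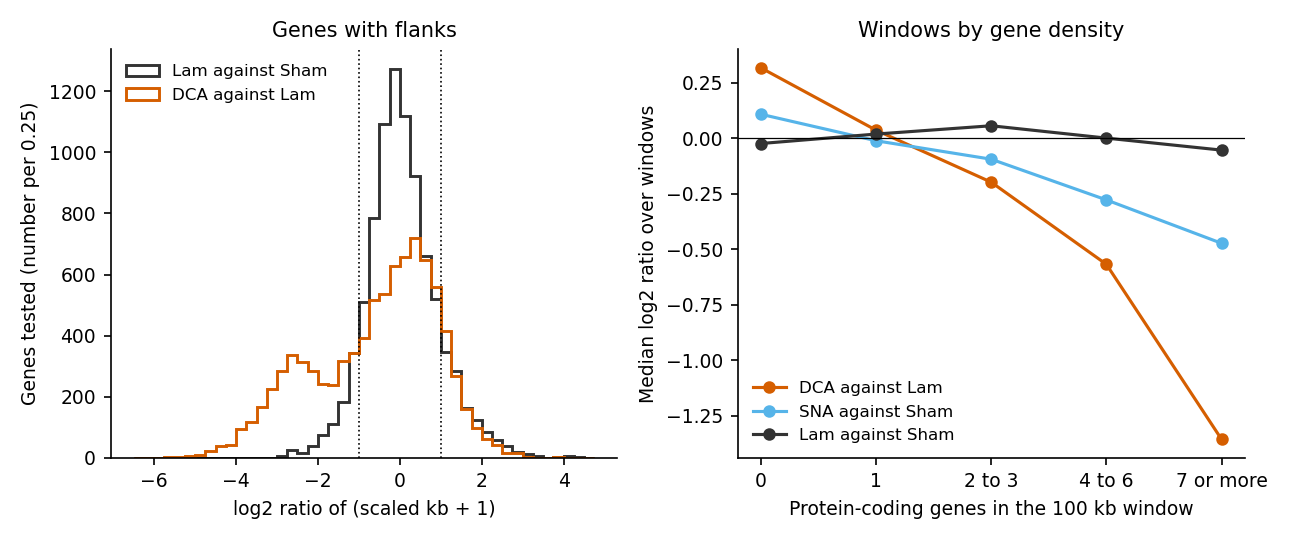
Left, number of genes per 0.25 of the log2 ratio of scaled coverage for DCA against Lam and Lam against Sham (8826 genes each, dotted lines at the 2-fold threshold). The DCA distribution has a further group of genes on the low side that the control comparison lacks. Right, median log2 ratio over 100 kb windows by the number of genes they hold, falling from 0.32 to −1.36 for DCA against Lam.

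The genes with the largest fall in the log2 ratio were long genes with much coverage in Lam and little or nothing in DCA. With DCA at or near 0 the ratio is set by the scaled kb in Lam, so this ranking favours long, widely covered regions. Sham, which had to exceed DCA at least 2-fold, covered 8.45% to 63.3% of the regions. Casz1, a zinc finger transcription factor gene at chr4:148804366-148954893, had 83.1 scaled kb in Lam, 0 in DCA, 76.7 in Sham and 21.98 in SNA. In Lam 33 peaks covered 59.5% of its region. Cacna1i, which encodes a T-type calcium channel, had 54.2 in Lam, 0 in DCA, 46.5 in Sham and 19.3 in SNA. Cux2, a homeodomain factor gene, had 52.8, 0, 37.3 and 12.7 in the same order. In all 3 genes DCA was empty, SNA was lowest of the other lists, and Lam and Sham were high. Unc5b, a receptor for the guidance cue netrin, had 40.9 scaled kb in Lam, 0 in DCA, 50.3 in Sham and 15.9 in SNA. Ryr1, the calcium release channel of skeletal muscle, had 38.0, 0, 51.2 and 11.8, and Grm4, a metabotropic glutamate receptor, 38.0, 0, 37.8 and 6.15. Prdm16, known as a regulator of brown fat identity, kept a single peak: it had 59.8 scaled kb in Lam, 0.60 in DCA, 50.7 in Sham and 11.6 in SNA. Zfp469, Plch2 (a phospholipase C gene) and Ccdc88c (a Wnt pathway gene) were likewise at 0 in DCA, against 49.6, 44.4 and 43.8 in Lam. Over these 10 genes Lam ranged from 38.0 to 83.1 scaled kb and covered 21.4% to 59.5% of the region, Sham ranged from 18.9 to 76.7, SNA from 5.17 to 21.98 and DCA from 0 to 0.60. The DCA values do not overlap with those of any other list. The choice of these genes fixes this for Lam and Sham. It also puts DCA at or near 0, which favours SNA above DCA.

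The largest gains were smaller and lay at genes with little mark in Lam. Gtsf2, a germline gene, had 0 scaled kb in Lam, 13.0 in DCA, 3.75 in Sham and 6.39 in SNA. Usp18, the protease that removes the interferon-induced modifier ISG15, had 0, 13.0, 0.85 and 5.44. Zfp945, of the zinc finger gene clusters, had 1.98 scaled kb in Lam, 35.8 in DCA, 16.1 in Sham and 21.4 in SNA. Here Lam was the low list, since Sham and SNA covered 44.4% and 57.3% of the region, close to the 50.7% of DCA. Olfr1453, an odorant receptor, and Vmn1r230, a vomeronasal receptor, had no base covered in Sham or Lam and 8.58 and 7.46 scaled kb in DCA. The other named gains were Hnmt (histamine methyltransferase), Olfr290, Mrgprx2 (a Mas-related receptor), Micu3 (a mitochondrial calcium uptake protein) and Eif2s2 (a translation initiation factor subunit). They had between 6.27 and 7.27 scaled kb in DCA, and Lam was at 0 in each. In 9 of the 10 genes Lam had no base covered, and Sham ranged from 0 to 16.1.

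**Figure D2:**
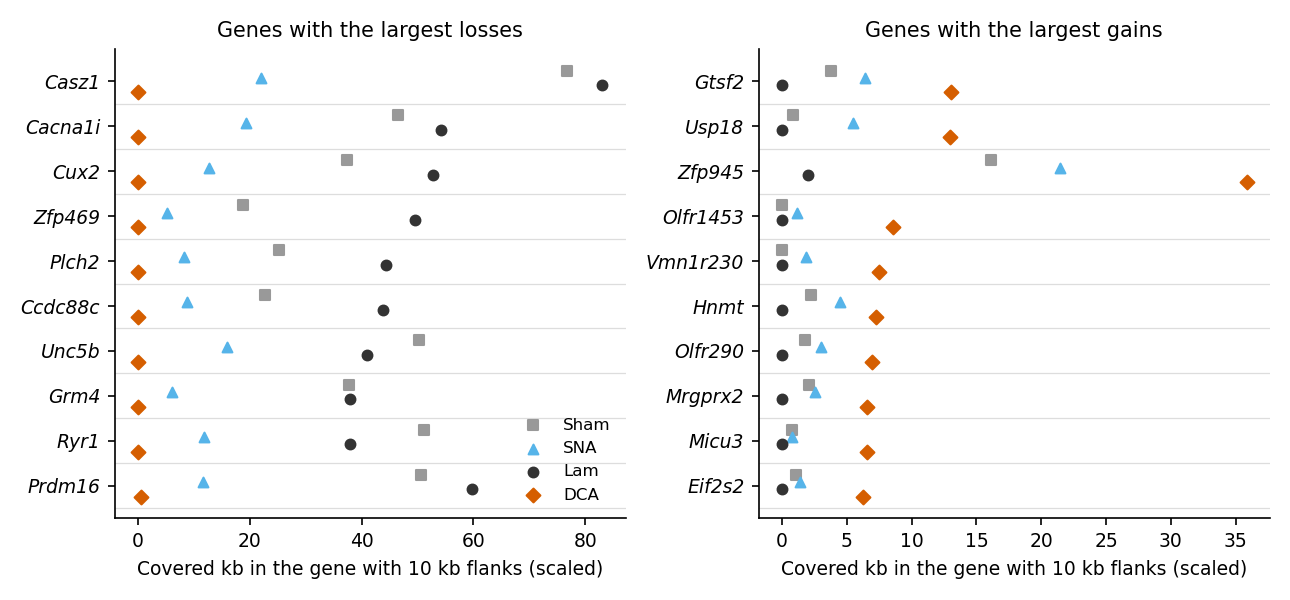
Scaled coverage in kb (x axis) of the 10 genes with the largest losses and the 10 with the largest gains (y axis), with 1 point for each of the 4 lists. In the left panel DCA sits between 0 and 0.60 and SNA between 5.17 and 21.98, below Lam and Sham; in the right panel Lam sits between 0 and 1.98.

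Losses ran together over long stretches. Of 9381 windows of 100 kb that passed the filter, 1769 were lost (18.9%) and 1428 gained (15.2%). For Lam against Sham 776 were lost (8.27%) and 827 gained (8.82%). Without scaling the split was 4293 lost and 130 gained, with centring 1988 and 1048, and at a −log10 p of at least 1 it was 329 and 384. Adjacent lost windows formed 347 domains of at least 2 windows over 101.3 Mb. The longest was 1.2 Mb and 33 had 5 or more windows. Gained windows formed 189 domains over 43.5 Mb, 2 of them with 5 or more windows. Lam against Sham gave 61 lost domains over 14.8 Mb and 72 gained over 15.2 Mb.

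The lost domain with the largest difference, chr4:139500001-140600000, holds Pax7, a factor of muscle stem cells and the dorsal neural tube, with Igsf21, Arhgef10l and 4 other genes. It had 450.0 scaled kb in Lam, 31.0 in DCA, 342.9 in Sham and 213.9 in SNA, and 182 peaks in Lam against 22 in DCA. The second, chr8:120600001-121600000, holds the forkhead genes Foxf1, Foxc2 and Foxl1 and the myeloid factor gene Irf8. It had 401.0, 42.7, 334.6 and 163.3 scaled kb in the same order. The other 3 were chr4:153400001-154500000 with Trp73 of the p53 family, Ajap1 and Megf6, chr2:164900001-165800000 with Mmp9, Slc12a5 and Cdh22, and chr4:152100001-153300000 with Hes2, Hes3 and Chd5. In Lam they had 354.2, 322.9 and 334.3 scaled kb, and in DCA 62.3, 32.8 and 63.3. In each of the 5 domains Lam was the highest list and DCA the lowest, with SNA below Sham. The choice of these domains fixes Lam above DCA. Taking the largest differences also favours Lam as the highest list and DCA as the lowest. The order of SNA and Sham was not part of the choice. The gained domain with the largest difference, chr13:67200001-67800000, is a cluster of 19 zinc finger genes, a family of which many members silence transposable elements. It had 127.8 scaled kb in Lam, 306.3 in DCA, 144.8 in Sham and 165.6 in SNA. Before scaling the covered share was 26.0% in Lam and 29.3% in DCA. Thus the share of bases under a peak was near that of Lam, in a list with 47.0% of its length. On chromosome 17 the gained domains at 22100001-22500000 and 22600001-22900000 held 5 further zinc finger genes and Zfp945. They covered 13.9% and 19.1% of their bases in Lam and 21.8% and 31.5% in DCA. A gene-free domain at chr8:89400001-89700000 had 34.0% in Lam and 36.2% in DCA. The domain at chr17:85700001-86000000, which Srbd1 overlaps, had 2.46% in Lam, 20.4% in DCA, 30.5% in Sham and 39.4% in SNA. There Lam was again the list that stood apart.

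Lost and gained domains differed in the genes they hold. The 347 lost domains overlapped 1921 protein-coding genes, or 18.96 per Mb, and 2.02% of them held none. The 189 gained domains overlapped 377 genes, or 8.67 per Mb, and 30.7% held none. Among the 377 genes of the gained domains were 58 zinc finger genes by symbol and 65 olfactory or vomeronasal receptor genes. Among the 1921 of the lost domains there were 22 and 5. Receptor genes were 1459 of all 21883 genes, and the share of zinc finger genes over all genes is not given here. Members of both families lie in arrays, and 1 gained domain alone held 19 zinc finger genes. Gene density moved with the ratio over all windows compared. The median log2 ratio of DCA against Lam was 0.32 in the 4655 windows with no gene, 0.04 with 1 gene, −0.20 with 2 to 3, −0.57 with 4 to 6 and −1.36 in the 78 windows with 7 or more. The share of windows lost rose over these classes from 10.5% to 56.4%. For Lam against Sham the medians lay between −0.05 and 0.06. For SNA against Sham, which share no list with DCA or Lam, they were 0.11, −0.01, −0.09, −0.28 and −0.47. The medians thus fell with gene density in SNA over a smaller range, and did not between the control surgeries. Gene-dense regions also differ in base composition, and its part in the result was not tested.

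At gene starts the DCA list had a gap where Lam and Sham had their highest coverage. The start and strand were known for 17491 genes (79.9%) from a RefSeq table of the assembly GRCm38.p6. The entry nearest the outer end of the gene was used, and in 86.5% of genes it lay at most 500 bp from that end. Over all of these, the share of bases under a peak in Lam was 10.2% in the 500 bp bin that begins 10 kb before the start and 12.1% in the first 500 bp of the gene. In Sham these were 9.06% and 12.1%. In DCA the share was 4.73% far upstream and 1.82% at the start. SNA also fell, from 8.29% to 5.90%. The 56 developmental transcription factor genes with an entry, of 83 listed, showed the gap most clearly. In the first 500 bp Lam covered 94.5% of bases, Sham 89.3%, SNA 63.0% and DCA 11.3%. In the 41 of them with the start at most 500 bp from the gene end DCA covered 10.2%, and Lam 92.4%. From 7 to 7.5 kb before the start, where DCA was at its highest of 60.3%, Lam covered 82.5%, Sham 88.6% and SNA 76.0%. So at these genes DCA kept much of the flanking domain and little at the start. At 22 Hox genes with an entry the first 500 bp were covered at 56.5% in Lam, 54.0% in Sham, 36.4% in SNA and 7.05% in DCA. The lowest DCA share at the Hox genes was 1.88%, from 3500 to 3999 bp after the start. In the 250 bases before the start, 54 of the 56 developmental factors were touched by a Lam peak, 50 by a Sham peak, 39 by an SNA peak and 11 by a DCA peak. Over all 17491 genes these numbers were 2271, 2197, 1228 and 444.

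**Figure D3:**
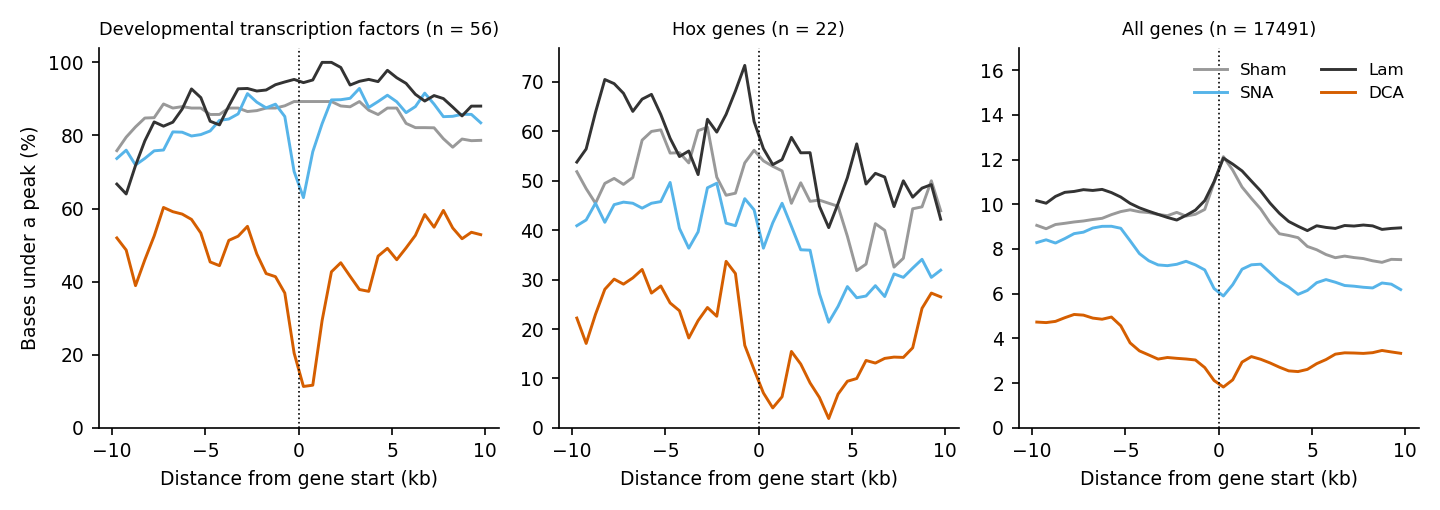
Percent of bases under a peak in 500 bp bins (y axis, unscaled) by distance from the gene start in kb (x axis, negative is upstream), with 1 line per list, for 56 developmental transcription factors, 22 Hox genes and 17491 genes. DCA falls to 11.3% of bases in the first 500 bp of the developmental factors, where Lam is at 94.5%; SNA has a shallower dip.

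Which starts stayed under a DCA peak went with the number of CG dinucleotides there. Of the 1167 upstream windows of 250 bases touched by a peak in both Lam and Sham, DCA touched 148 (12.7%) and SNA 501 (42.9%). In windows with 4 or fewer CG dinucleotides DCA touched 78 of 344 (22.7%). The share was 15.1% with 5 to 9 and 6.90% with 10 to 19, and it was 3 of 190 (1.58%) with 20 or more. The SNA shares in the same classes were 45.1%, 45.3%, 40.5% and 40.0%. Among these windows the fall was large in DCA and slight in SNA. Over all windows, touched in the controls or not, each list had a lower share with 20 or more CG dinucleotides than with 4 or fewer: Sham 10.6% against 11.98%, Lam 6.42% against 14.9%, SNA 2.58% against 11.2% and DCA 0.0744% against 5.40%. Among the 1167 windows touched in Lam and Sham, the 148 touched in DCA had a median of 4 CG dinucleotides and 48.8% G or C. The 1019 not touched in DCA had 10 and 58.4%. Split by SNA, the same windows had 8 and 54.8% where touched, and 9 and 58.4% where not. These shares describe the windows in the table. Promoter entries were matched for only 77.3% of the lost and 79.3% of the gained genes, under the 80% set for such a check, so base composition was not compared between lost and gained genes.

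**Figure D4:**
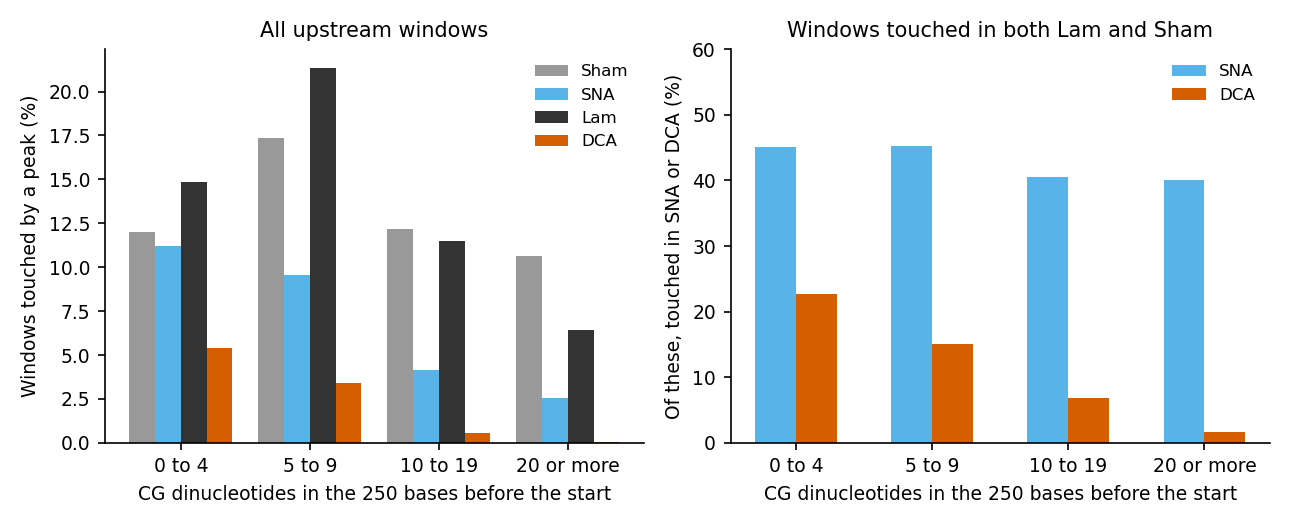
Left, percent of all upstream windows touched by a peak in each list (y axis) by number of CG dinucleotides in the window (x axis). Right, percent of the windows touched in both Lam and Sham that SNA or DCA also touched; DCA falls from 22.7% to 1.58% while SNA stays between 40.0% and 45.3%.

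The upstream sequences of 6 developmental factors show both states. They were taken from the Hox and developmental factor lists after their values were seen. The 250 bases before the start in that table were wholly covered in Lam and Sham at all 6. DCA covered no base at the first 3, where SNA covered 0 at Lmx1b, 0 at Pax7 and 223 at Nkx6-2. At the last 3 DCA and SNA covered every base. The bases are written 5′ to 3′ on the strand of the gene with CG dinucleotides in capitals, from the RefSeq table of GRCm38.p6.
Lmx1b: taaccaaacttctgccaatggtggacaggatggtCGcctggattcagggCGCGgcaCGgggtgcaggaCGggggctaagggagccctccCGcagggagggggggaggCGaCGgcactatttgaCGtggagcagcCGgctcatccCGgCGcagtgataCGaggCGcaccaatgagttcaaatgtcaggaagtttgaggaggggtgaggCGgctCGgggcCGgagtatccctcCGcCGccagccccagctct
Pax7: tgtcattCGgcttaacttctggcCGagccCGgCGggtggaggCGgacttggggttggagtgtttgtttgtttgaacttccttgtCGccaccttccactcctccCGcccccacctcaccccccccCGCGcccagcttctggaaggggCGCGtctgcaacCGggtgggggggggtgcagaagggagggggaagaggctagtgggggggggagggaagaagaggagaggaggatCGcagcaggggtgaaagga
Nkx6-2: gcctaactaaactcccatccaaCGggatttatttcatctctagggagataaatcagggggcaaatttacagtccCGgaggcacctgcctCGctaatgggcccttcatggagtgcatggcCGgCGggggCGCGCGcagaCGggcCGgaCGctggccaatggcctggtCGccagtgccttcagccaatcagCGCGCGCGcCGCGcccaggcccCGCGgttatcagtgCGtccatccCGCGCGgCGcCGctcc
Olig3: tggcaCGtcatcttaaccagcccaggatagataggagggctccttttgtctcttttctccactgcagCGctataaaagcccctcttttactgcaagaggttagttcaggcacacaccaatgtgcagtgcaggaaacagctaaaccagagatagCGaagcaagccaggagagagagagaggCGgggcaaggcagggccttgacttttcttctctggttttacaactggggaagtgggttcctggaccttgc
Lhx9: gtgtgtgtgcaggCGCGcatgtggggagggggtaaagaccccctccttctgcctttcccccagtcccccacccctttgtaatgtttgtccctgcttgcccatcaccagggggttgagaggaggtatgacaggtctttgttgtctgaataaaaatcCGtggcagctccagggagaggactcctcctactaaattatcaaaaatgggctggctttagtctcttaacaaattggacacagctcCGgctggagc
Otx2: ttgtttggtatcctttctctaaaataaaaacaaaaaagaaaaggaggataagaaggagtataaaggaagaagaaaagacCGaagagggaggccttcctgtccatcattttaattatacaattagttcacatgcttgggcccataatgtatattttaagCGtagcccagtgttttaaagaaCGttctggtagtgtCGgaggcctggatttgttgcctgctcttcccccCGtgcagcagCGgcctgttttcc
Lmx1b (chr2:33641099-33641348, minus strand), which encodes a factor of dorsal spinal and limb patterning, has 19 CG dinucleotides. Pax7 (chr4:139832969-139833218, minus strand) has 13 and Nkx6-2 (chr7:139582798-139583047, minus strand), a ventral neural tube factor, has 26. Olig3 (chr10:19356289-19356538, plus strand), Lhx9 (chr1:138842445-138842694, minus strand) and Otx2 (chr14:48667645-48667894, minus strand), all neural patterning factors, have 4, 4 and 6. The starts used for Lmx1b, Pax7 and Lhx9 lie 0.11, 0.562 and 6.395 kb inside the gene as annotated, so the windows of Pax7 and Lhx9 lie within it and that of Lmx1b in part. The other 3 starts are at the gene end. The median over the 17491 windows was 10. CG dinucleotides were searched as the letters CG, which read the same on both strands.

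Of the Hox genes, the body-axis factors that are the classic Polycomb targets, DCA kept the cluster ends with the highest gene numbers and lost many of the other members. Of 39 genes, 32 were compared in 6 loci, and 18 were lost and none gained, where all genes gave 35.0% lost and 12.3% gained. Their median log2 ratio was −1.49, which is 1.19 below that of all genes, and 0.11 above it when peaks were numbered in place of bases. For Lam against Sham 1 was lost and 4 were gained. Hoxa9 had 7.9 scaled kb in Lam, 0 in DCA, 6.6 in Sham and 0 in SNA. Hoxc9 had 10.6, 0.4, 12.3 and 1.7. At the other end Hoxc13 had 22.1, 39.3, 24.7 and 25.5, and Hoxb13 had 18.3, 30.0, 19.9 and 20.5. The contrast was seen between members of 1 cluster, since Hoxc9 and Hoxc13 lie on the same stretch of chromosome 15. Before scaling, the Hoxa cluster was covered at 31.0% in Lam and 6.70% in DCA. For Hoxb these shares were 38.8% and 14.7%, for Hoxc 59.7% and 22.6%, and for Hoxd 86.3% and 22.2%. In Sham the 4 clusters had 37.4%, 40.9%, 55.3% and 41.3%, so that Hoxd also differed between the control surgeries. Hoxd3 had 37.6 scaled kb in Lam, 10.7 in DCA, 1.1 in Sham and 23.7 in SNA.

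Most of the other developmental transcription factors kept their share of the list. All 83 were compared, and 13 were lost (15.7%) and 4 gained, where all genes gave 35.0% lost. Their median was 0.18, which is 0.49 above that of all genes, and it stayed above it under each other scaling. Lmx1b had 49.6 scaled kb in Lam, 1.9 in DCA, 61.9 in Sham and 16.2 in SNA. Pax7 had 81.5, 7.7, 79.3 and 54.1. Among the other lost members were Tbx1, Dlx3, Sox3, Nkx6-2, Tbx2, Gsx1, Gbx2, Pitx1, Lhx3 and Barhl1, with 2.0 to 24.8 scaled kb in Lam and 0 to 11.1 in DCA. The gained members were Lmx1a, Olig3, Tbx20 and Sox17. Lmx1a, the paralog of Lmx1b, had 29.4 scaled kb in Lam, 84.3 in DCA, 8.9 in Sham and 67.8 in SNA. Olig3 had 14.3, 35.0, 18.5 and 19.2. Lmx1a and Lmx1b thus lay at opposite ends of the list. Of the 186 genes whose region was covered at 75% or more in Sham 18.8% were lost, against 28.3% to 45.8% in the 4 classes of lower Sham coverage. In those 186 genes the median share of bases covered was 85.9% in Lam and 40.1% in DCA.

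The genes of the Polycomb machinery itself carried little mark. Of 29, 7 were compared, with 5 lost and none gained, against the 35.0% and 12.3% of all genes. Pcgf1, a subunit of a variant Polycomb repressive complex 1, had 14.6 scaled kb in Lam, 0 in DCA, 16.6 in Sham and 7.3 in SNA. Cbx8, a reader of H3K27me3, had 9.6, 0, 11.3 and 4.3. Cbx7, Cbx2 and Bmi1 were the other lost members, with 5.7, 2.3 and 6.4 in Lam and 0, 0 and 2.6 in DCA. Cbx2 and Cbx8 are neighbours on chromosome 11. The members not lost were Pcgf5 and Phf19, with 14.8 and 1.7 in Lam and 7.9 and 3.3 in DCA. Of the 29 genes, 25 had a promoter entry, and none of their upstream windows was touched by a peak in Sham, SNA, Lam or DCA. At those 25 genes any coverage counted therefore lay outside that window, elsewhere in the gene or its flanks. The losses here are thus not losses of mark just before these gene starts.

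Regeneration-associated genes, those known to be induced in sensory neurons after a nerve injury, were called at shares near those of all genes. Of 40, 21 were compared, and 8 were lost (38.1%) and 2 gained (9.52%), where all genes gave 35.0% and 12.3%. The median was −0.16, which is 0.15 above that of all genes, and at or below it without scaling, by peak number and with equal list sizes. Ecel1, an endopeptidase induced by nerve injury, had 17.7 scaled kb in Lam, 0.5 in DCA, 19.7 in Sham and 8.9 in SNA. Tubb3, neuronal tubulin, had 8.8, 0, 7.3 and 0. The neuropeptide gene Gal had 9.0, 0.5, 8.6 and 6.0, and Smad1, a mediator of BMP signals, had 3.3, 0, 4.5 and 2.6. In these 4 genes DCA was the lowest list or shared a 0 with SNA. Cckbr, Plat and Fst were also lost. The gained members were Cacna2d1, the calcium channel subunit bound by gabapentin, with 2.3, 10.9, 4.1 and 7.8, and Stmn2, with 0, 1.9, 3.2 and 5.6. Atf3, a factor induced early in injured neurons, was not called, with 3.7, 5.2, 3.2 and 5.7, and neither were Sox11 and Gap43, with 8.1 and 5.4 in Lam and 7.8 and 9.9 in DCA.

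Of 25 sensory neuron genes, 21 were compared, and 6 were lost (28.6%) and 1 gained (4.762%), also not far from the 35.0% and 12.3% of all genes. Their median of −0.33 lay 0.03 below that of all genes and 0.20 above it by peak number. Runx3, a factor of proprioceptive neurons, had 50.9 scaled kb in Lam, 3.5 in DCA, 43.7 in Sham and 29.4 in SNA. Th, Nefh, Prph and P2rx3 were lost as well. Isl1, a homeodomain factor of sensory neurons, was gained with 23.3, 47.9, 24.8 and 23.7. For Isl1 DCA was the highest list in scaled kb and the other 3 lay between 23.3 and 24.8. Its log2 ratio of 1.01 is near that of a region under as many bases in DCA as in Lam. The call is therefore one of share and not of more covered bases. Trpa1, an irritant channel, had 2.4, 5.3, 7.4 and 6.2 and was not called.

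Lists of other cell types of the ganglion were examined beside the neuronal ones. Of 20 satellite glia and Schwann cell genes, 7 were compared, and 6 were lost and 1 gained, where all genes gave 35.0% and 12.3%. Ngfr, the p75 neurotrophin receptor, had 17.7 scaled kb in Lam, 0 in DCA, 9.2 in Sham and 3.3 in SNA, and Mag, a myelin glycoprotein, had 7.1, 0.3, 3.7 and 0.7. Glul, glutamine synthetase, was the gained member with 1.7, 4.4, 3.4 and 5.1. For Lam against Sham the median of this list was 0.80, above all genes, so Lam was already high there. Of 20 macrophage genes, 17 were compared, and 7 were lost (41.2%) and 2 gained (11.8%), near the shares of all genes. The median of 0.33 was 0.63 above that of all genes and 0.07 below it by peak number. C1qa, a complement gene in a cluster with C1qb and C1qc, had 14.5, 0, 15.3 and 9.0, and Trem2, a myeloid receptor, had 7.3, 0, 7.6 and 3.3. Ptprc, the pan-leukocyte CD45 gene, was gained with 3.0, 8.7, 6.5 and 7.9. Of 25 genes of other tissues, 21 were compared, with 9 lost (42.9%) and 4 gained (19.05%), against 35.0% and 12.3% of all genes. Myod1, the muscle determination factor, had 13.3, 0, 7.6 and 10.1, and Myh1, a muscle myosin, had 3.5, 15.6, 3.8 and 8.9.

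Relative to their lists, receptor genes were gained more often than all genes, and keratin genes were lost more often. Of 1459 olfactory and vomeronasal receptor genes, which lie in large arrays, 348 in 262 loci were compared. Among these, 114 were gained (32.8%), 28 lost (8.05%) and 206 not called. All genes gave 12.3% and 35.0%. The median was 0.66, which is 0.96 above that of all genes and above it under each other scaling. For Lam against Sham 37 of these genes were gained and 78 lost, so Lam was low there beside both lists. Before scaling, the family's bases were covered at 5.36% in Lam, 4.10% in DCA, 6.55% in Sham and 7.76% in SNA. Without scaling 32 of 332 compared receptor genes were gained and 77 lost. For the family as a whole the gain was thus one of share and not of covered bases. Single members did gain bases, such as Olfr1453 with 0 kb in Lam and 4.93 kb in DCA before scaling. Upstream windows of these receptors had a median of 1 CG dinucleotide. Of 49 keratin genes, the intermediate filaments of epithelia, 47 in 17 loci were compared. Among these, 23 were lost (48.9%), 1 was gained and 23 were not called. Without scaling 37 were lost and none gained. Krt90 had 19.9 scaled kb in Lam, 0 in DCA, 10.2 in Sham and 9.3 in SNA, and Krt25, the gained member, had 4.4, 11.3, 6.9 and 8.9. For Lam against Sham 12 keratin genes were gained and none lost, so Lam was the high list there.

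Of 74 potassium channel genes compared, 31 were lost (41.9%) and 6 gained (8.11%), where all genes gave 35.0% and 12.3%. Their median of −0.57 lay 0.26 below that of all genes and below it under each other scaling. Kcng1, a silent voltage-gated subunit, had 24.8 scaled kb in Lam, 0 in DCA, 22.5 in Sham and 10.3 in SNA. Kcnc1, the Kv3.1 channel of fast-spiking neurons, had 24.3, 0, 11.6 and 2.7. Kcnn2, a calcium-activated channel, was the most gained with 11.1, 34.6, 25.3 and 26.9. Of 72 axon guidance genes 44 were compared, and 19 were lost (43.2%) and 5 gained (11.4%). The median of −0.23 was 0.08 above that of all genes, and 0.05 below it without scaling and 0.03 below it by peak number. Beside Unc5b, Ntng2 had 21.1, 0, 21.9 and 5.7, and Ntn1, the ligand netrin-1, had 30.9, 2.6, 33.8 and 27.5. Slit1, a repellent ligand, had 60.8, 12.9, 64.4 and 31.9. The netrin receptor Dcc was gained with 12.2, 27.3, 28.7 and 34.9, as was the semaphorin Sema3c with 0.5, 5.1, 1.5 and 5.2. For Dcc DCA was close to Sham, and Lam was the low list. Of 82 ribosomal protein genes, which are active in all cells, only 4 reached the filter.

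**Figure D5:**
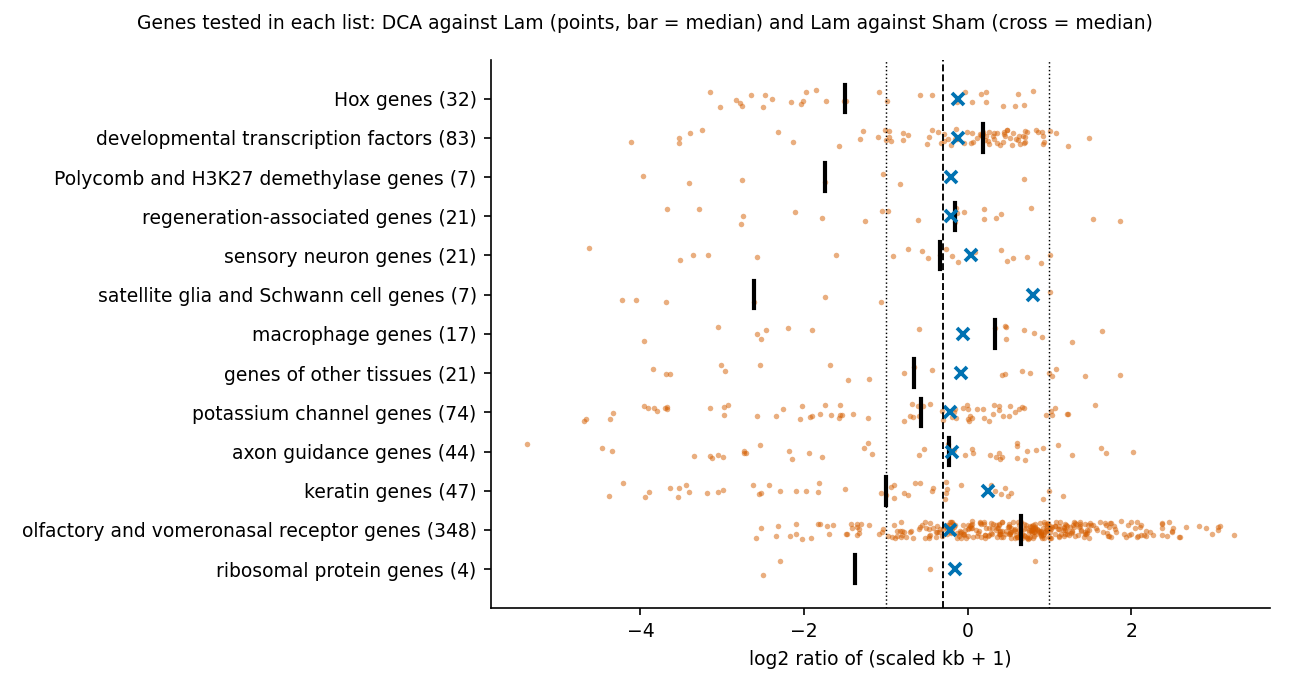
Log2 ratio of scaled coverage (x axis) for each gene compared, DCA against Lam, in 13 gene lists (y axis, number compared in brackets), with a bar at the list's median and a cross at its median for Lam against Sham. The dashed line is the median of all genes, −0.30, and dotted lines mark the 2-fold threshold; Hox genes have a median of −1.49 and olfactory and vomeronasal receptors 0.66.

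At the same genes the medians of ATAC and of the active marks, scaled to equal list totals, lay close together in the DCA and Lam lists. Median ATAC coverage at the 3088 lost genes was 4.46 scaled kb in Lam and 4.15 in DCA. At the 1083 gained genes it was 1.28 and 1.36. Median H3K27ac coverage at the lost genes was 0.78 scaled kb in Lam and 0.83 in DCA, and for H3K9ac 1.02 and 1.26. The H3K9ac list of DCA covered 64.2 Mb and that of Lam 24.7 Mb, and the H3K27ac lists 26.7 and 48.5 Mb. Lost genes thus had more accessible and acetylated bases than gained genes in both lists, at median lengths of 24.02 and 24.67 kb. An H3K27ac peak lay at 73.4% of lost and 47.4% of gained genes in Lam, and at 68.2% and 40.6% in DCA. For H3K9ac these shares were 67.0% and 47.8% in Lam and 82.3% and 53.7% in DCA, so the shares of the 2 marks moved in opposite directions, each with the size of its list. In the 4655 genes neither lost nor gained, H3K27ac lay at 54.4% in Lam and 49.7% in DCA, and H3K9ac at 51.3% and 61.4%. Gained genes were nearer to these than lost genes were.

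The widest peaks of DCA lay mostly beside developmental factor genes, and its strongest lay in a single stretch. The 3 widest, of 26.8 to 27.8 kb, were over Ttll6 next to Hoxb13, beside Hoxc13 and at Zic4, a zinc finger factor of the cerebellum. Lam covered 91.1% to 99.7% of their bases and Sham and SNA all of them. The fourth, of 23.5 kb near Zfp184 on chromosome 13, was covered at 72.1% in Lam and 23.6% in Sham. The fifth, of 20.6 kb near Nkx2-3, was covered at 94.7% and 99.6%. All 43 DCA peaks with a q of at most 0.05 lay at chr11:4648739-8206950, a stretch of 3.56 Mb with 49 genes. The same stretch held 41 of the 218 such peaks in SNA, 18 of 916 in Lam and 5 of 1613 in Sham. The 5 strongest Lam peaks also lay early on chromosome 11, between 3542017 and 4267133 and so before that stretch, and no base of them was covered in DCA. Of the 43, 14 overlapped any Lam peak. Counted over all peaks, the stretch was covered at 8.56% in Lam, 2.17% in DCA, 6.74% in Sham and 5.45% in SNA, so that DCA was the lowest list there in covered bases.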

How the data were processed

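Peak lists of H3K27me3 in broad peak layout, 1 per surgery with 2 samples of 10 mice pooled by the authors, were used as deposited. The aligner, the peak caller and its settings are not given in the sources used here; the build was mm10 per the submitters' processing notes. The authors' fold enrichment is a linear ratio per peak. Their deposited −log10 p and q values rank peaks within a list; all 3 served only to describe or filter peaks. Peak names carry ranks up to 180305 in DCA and 247307 in Lam, so 49.9% and 62.3% of the ranks were left, by a rule not given in the sources used here. The lists give no read counts, so depth is unknown. Narrow peak lists of H3K9ac, H3K27ac and ATAC were scaled in the same way.

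Covered bases were counted with Python 3.11.15, numpy 2.4.6 and pandas 2.3.3, scaled to the mean total of the 4 lists, and compared as log2 of (scaled kb + 1), for genes of at least 2 and windows of at least 5 scaled kb on average. With 1 list per surgery there was no test. Coverage counting was tested on simulated data. Genes came from RefSeq, assembly GRCm38.p6. Regions of neighbouring genes overlap and share peaks. Named genes were the 10 gained and 10 lost with the largest log2 ratio that differed in the same direction from Sham, 1 per locus. In each gene list, the extremes and called members were eligible for naming; genes that were not called, such as Atf3, Sox11 and Gap43, and Hoxd3 were chosen after their values were seen. Some members of the lists are counted and not reported here by name. The members and gene lists were chosen with earlier results of these data known. Alternatives were other scalings, filters, flanks, windows and peak thresholds.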

Additional observations from a re-analysis of the deposited data

How the results depend on the processing

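No paired analysis was possible because each list pools its replicates, and for the same reason no replicate could be left out. In 240 recalculations of the 20 named genes no ratio changed sign, though some came to 0, and 181 stayed past both 2-fold and the filter on low values. Of 48 recalculated counts, 21 stayed within 1.5 times. Without scaling, 172 genes were gained and 5178 lost, and 130 windows gained and 4293 lost. By peak number 925 windows were gained. Peaks with −log10 p of at least 3 left 14 gained and 14 lost of 45 genes, and 16 and 4 of 20 windows. They were 106 peaks in DCA and 1322 in Lam, scaled to the same total. Such numbers cannot show whether the excess of lost over gained genes holds among the strongest peaks. At −log10 p of at least 1, chosen after seeing the data, 572 genes were gained and 714 lost, and 384 windows gained and 329 lost. Centring, also chosen after seeing the data, gave 1758 gained genes. A pseudocount of 3 kb gave 569 gained genes. Without the filter 1832 genes were gained and 6184 lost, and 4062 windows gained and 4722 lost. Without flanks 605 genes were gained and 1732 lost, and with flanks of 50 kb 1730 and 5899. Windows of 50 kb gave 3396 gained and 3931 lost, and of 500 kb 139 and 333; other sizes change how many regions are compared. The cause of the other shifts was not tested. With equal list sizes DCA touched 29 of 147 upstream windows with 4 or fewer CG dinucleotides that were touched in Lam and Sham, and 1 of 82 with 20 or more. With starts at most 500 bp from the gene end these shares were 23.1% and 0.613%. At −log10 p of at least 1 it touched 0 of 44 over all genes, where SNA touched 7. All 3 of these were chosen after seeing the data. Depth is unknown, so an empty region in DCA means only that no peak was left in the list.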

Other observations

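The loss was uneven between chromosomes. Of the windows compared, 33.5% were lost on chromosome 4 and 25.05% on chromosome 11, against 8.0% on chromosome 3 and 8.17% on chromosome 13. Chromosome 4 held 7.07% of the covered bases in Lam and 5.05% in DCA, where Sham had 6.51% and SNA 6.01%. Chromosome 13 held 5.40% in Lam and 6.67% in DCA, where Sham had 5.80% and SNA 6.09%. The SNA list lay between the control lists and DCA in gene-dense windows and at gene starts. It did so at the named losses too, where the choice of genes favours that order.

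Other gene families had few gene starts under the mark in DCA. Of 62 axon guidance genes with a promoter entry, 20 were touched in Sham, 12 in Lam, 2 in SNA and none in DCA. Of 68 potassium channel genes, 30 were touched in Sham, 30 in Lam, 6 in SNA and 2 in DCA. Of 35 keratin genes, 21 were touched in Sham, 26 in Lam, 10 in SNA and 3 in DCA. Of 1261 olfactory and vomeronasal receptor genes, 103 were touched in Sham, 73 in Lam, 120 in SNA and 67 in DCA, so that here DCA was near Lam. Over all 17491 genes, 13.0% were touched in Lam and 2.54% in DCA.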
